A study of Bos taurus with 11 samples.

Results

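CCNF, 8 other cyclins and CDK1, the kinase that mitotic cyclins activate, were followed in single bovine blastocysts. The 10 genes were CCNF, CCNA2, CCNB1, CCNB2, CCND1, CCND2, CCND3, CCNE1, CCNE2 and CDK1, each found by pairing RefSeq accessions with symbols. The table of GATA3 KO listed 9 of them among 8576 transcripts, and the table of CDX2 KO listed all 10 among 12047. CCND1 was not analysed in the table of GATA3 KO. Each gene was represented by 1 transcript. The set was chosen by the log2 fold change of CCNF in GATA3 KO against WT control, already known to be among the largest falls in these data. All values of the 10 genes in GATA3 KO against WT control are therefore a description, without a test.

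The embryos were produced by in vitro fertilization of oocytes from abattoir ovaries and collected as blastocysts on day 7. The groups were WT control (3 embryos), GATA3 KO (4) and CDX2 KO (4), with 1 library for each embryo. Every embryo, WT control included, was injected as a zygote with mRNA of BE3, a base editor that changes C to T where a guide RNA directs it. GATA3 KO embryos also received a mix of GATA3 guides and CDX2 KO embryos a mix of CDX2 guides, designed to introduce stop codons. Injection into zygotes can leave a mosaic of edited and unedited cells, and whole embryos mix trophectoderm (TE) and inner cell mass (ICM), so fewer cells of a type and less RNA per cell cannot be told apart. The labels do not say whether embryos of a group came from separate fertilizations, and p-values measure only the spread between these embryos.

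Cyclins are the regulatory subunits that switch cyclin-dependent kinases on, and most are made and destroyed once in each cell cycle. D cyclins respond to growth signals, E cyclins act at the start of DNA replication, cyclin A2 acts in S phase and early mitosis, and B cyclins with CDK1 drive mitosis. Cyclin F, the product of CCNF, is an exception, since it activates no kinase. It is an F-box protein that brings substrates such as RRM2, CCP110, CDC6 and SLBP to the SCF ubiquitin ligase for destruction. Early embryos rely first on maternal and then on embryonic transcripts for these proteins.

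The values were normalized counts, that is reads per transcript divided by a size factor for each embryo within a table, and the reads behind them were recovered. Libraries held 150057 to 540775 reads in the table of GATA3 KO, whereas that of CDX2 KO spanned 100731 (CDX2 KO embryo 3) to 662962. A detection floor of 3 reads corresponded to 1.29 to 4.66 normalized counts in the first table and 1.61 to 6.99 in the second. The floor covers counting error only, because PCR copies are not separate molecules. GATA3 lay between 71.3 and 87.6 in WT control against 9.85 to 13.1 after GATA3 KO, and CDX2 between 6.88 and 11.1 against 1.66 to 4.66 after CDX2 KO. Of the TE markers, KRT8 and KRT18 were high in every embryo (718 or more), whereas IFNT2, ELF5 and the primitive endoderm marker SOX17, read from the table of CDX2 KO, stayed at 7 reads or fewer. The ICM marker POU5F1 was at 47.8 or more in every embryo. NANOG, named after its values were seen, was at 0 in at least 1 embryo of each KO group. In the table of GATA3 KO it had 12.6, 15.1 and 15.5 in WT control and 0, 7.32, 13.1 and 21.3 in KO embryos 3 to 6. GATA3 KO embryo 6 was thus above every WT control embryo.

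CCNF (NM_001098870) was lower in all 4 GATA3 KO embryos than in any WT control embryo. WT control embryos 1 to 3 held 26.0, 22.7 and 23.3 normalized counts. In GATA3 KO embryos 3 to 6 they were 2.89, 5.60, 3.57 and 4.11. The WT control values lay close together, far above every KO value. The means were 24.0 ± 1.78 (SD, n = 3) and 4.04 ± 1.15 (SD, n = 4), a 5.94-fold difference, and the log2 fold change was -2.34 (SE 0.47), rank 5 among the 4271 transcripts when ordered from the lowest. CCNF reached the mean of 10 required for the fit only through the WT control embryos. With a pseudocount of 5 in place of 1 the log2 fold change was -1.69, whereas leaving out any 1 embryo kept it between -2.47 and -2.22.

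The reads behind these values were few. They numbered 33, 21 and 15 in WT control embryos and 2, 13, 3 and 5 in GATA3 KO embryos, so embryos 3 and 5 were at or under the floor. Summed over embryos, CCNF took 23 of 1216260 reads in GATA3 KO against 69 of 677618 in WT control. As a share of reads, CCNF in GATA3 KO stood at 18.6% of its level in WT control, and single KO embryos at 11.8% (embryo 3) to 23.6% (embryo 4).

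**Figure D1:**
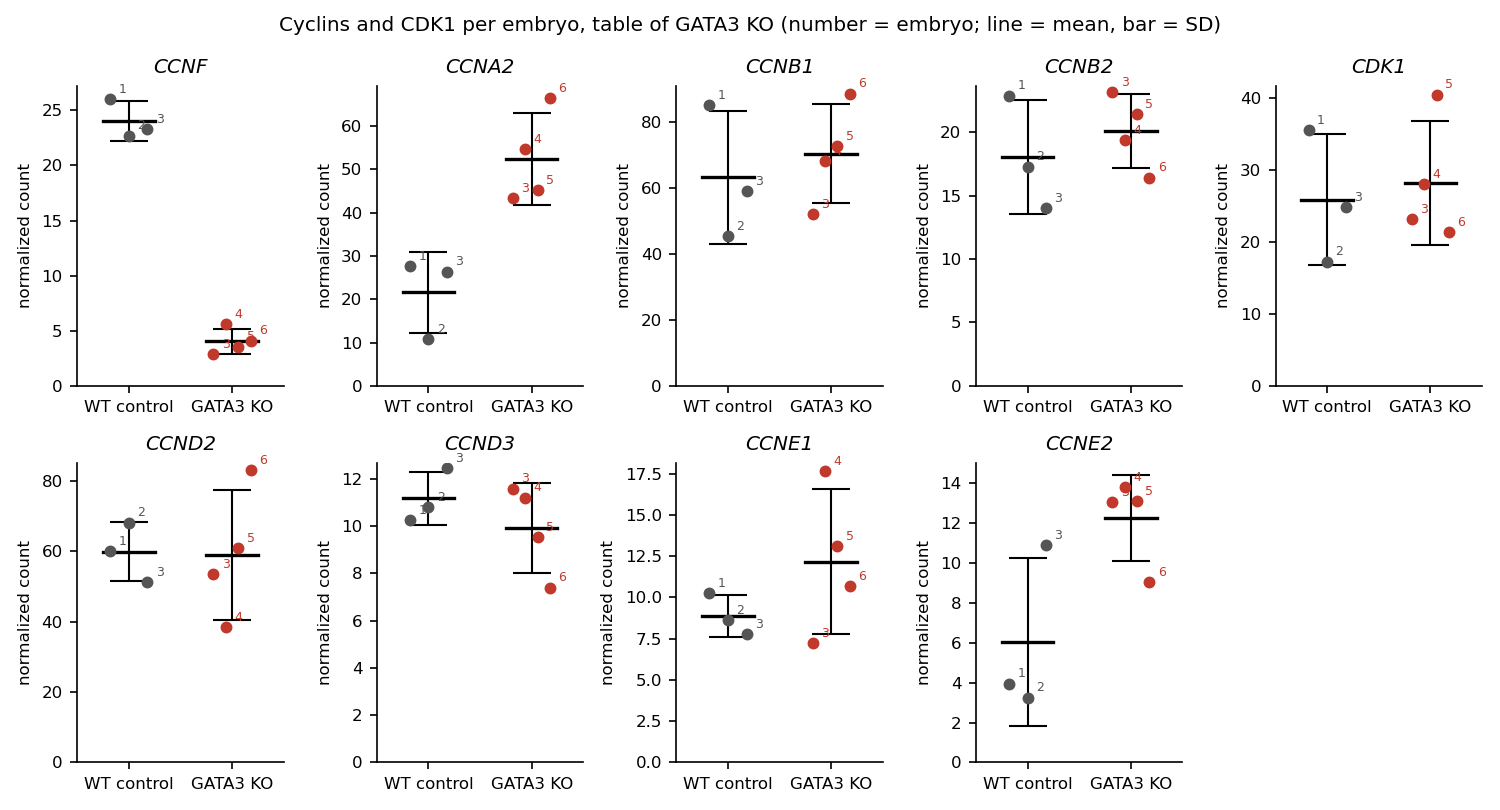
Normalized count (vertical axes, linear from 0) of the 9 listed genes in each WT control (grey) and GATA3 KO (red) embryo of one table, with embryo numbers, means (lines) and SD (bars). CCNF is low in all 4 KO embryos (2.89 to 5.60 against 22.7 to 26.0), CCNA2 is high in all 4 (43.4 to 66.5 against 10.8 to 27.6), and the groups overlap for the other genes.

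CCNA2 (NM_001075123), whose product pairs with CDK2 and CDK1, lay on the other side. Its normalized counts were 27.6, 10.8 and 26.4 in WT control and 43.4, 54.7, 45.3 and 66.5 in GATA3 KO embryos. The lowest KO embryo was above the highest WT control embryo, and WT control embryo 2 was well under the other 2. The means were 21.6 ± 9.38 (SD, n = 3) and 52.5 ± 10.6 (SD, n = 4), and the log2 fold change was 1.33 (SE 0.33). Without any 1 embryo it stayed between 0.91 and 1.55. In the RefSeq annotation of ARS-UCD2.0, CCNA2 overlaps EXOSC9, an RNA exosome subunit, and whether the counting used strand is not given in the sources used here. EXOSC9 itself had 21.7 ± 9.24 (SD, n = 3) and 25.2 ± 8.30 (SD, n = 4), with a log2 difference of 0.26 (adjusted p = 0.695 from limma).

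Of the cell type markers, 3 TE markers passed the threshold in GATA3 KO embryos, the targeted GATA3 among them. Of the 4 ICM, 2 primitive endoderm and 1 cumulus or granulosa markers fitted, 0 did, where 2.01% of all 4271 transcripts fitted passed. Of the TE markers, TFAP2C rose, with a log2 fold change of 1.03 (limma, adjusted p = 0.0442), whereas GATA2 fell by 1.16 (limma, adjusted p = 0.0344) and the targeted GATA3 by 2.62 (limma, adjusted p = 7.64e-05). With 1 embryo left out, GATA3 passed in 7 of 7 fits, GATA2 in 3 (not without WT control embryo 2 or 3 or GATA3 KO embryo 3 or 4) and TFAP2C in 2 (not without any of these or GATA3 KO embryo 5). The 6 fitted TE markers had a median of -0.78 with 5 negative, among them KRT8 at -0.09 and KRT18 at -0.77, and PAG2 at -0.80, which was -0.06 without WT control embryo 1 and -2.06 without WT control embryo 3. CDX2, too low to be fitted, had 4.66 to 9.73 in WT control and 0 to 3.45 in GATA3 KO embryos, without overlap and with 9 reads at most. Summed TE markers, 7 of 9 listed and mostly KRT8 and KRT18, spanned 3208 to 7368 in WT control against 3376 to 4879 after GATA3 KO. The 4 fitted ICM markers had a median of -0.96. SALL4, a pluripotency factor, was at -0.98 with every KO embryo lower (adjusted p = 0.0851 from limma), as for 7.05% of all transcripts. NANOG was at -1.10 (adjusted p = 0.412 from limma), SOX2 at -0.95 and POU5F1 at 0.0011. The 4 ICM markers summed to 155 to 185 in WT control against 76.7 to 187.0 after GATA3 KO. Of the primitive endoderm markers HNF4A had -1.40 and PDGFRA -0.42, and their list, 3 of 5 listed, summed to 31.6 to 71.3 against 10.1 to 39.2. Cumulus and granulosa markers, 4 of 10 listed, summed to 29.2 to 52.1 against 12.5 to 33.3, led by COL1A2 (-1.35, adjusted p = 0.129 from limma), with CYP11A1 at 8.02 ± 3.61 (SD, n = 3) and 9.19 ± 10.3 (SD, n = 4). The part of these cells in the CCNF and CCNA2 differences was not tested.

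The mitotic cyclins B and CDK1 differed little between the groups. CCNB1 (NM_001045872) had 85.2, 45.4 and 59.1 in WT control and 52.1, 68.1, 72.7 and 88.7 in GATA3 KO embryos, and its log2 fold change was 0.17 (SE 0.28). CCNB2 (NM_174264), its close relative, had 22.9, 17.3 and 14 against 23.2, 19.4, 21.4 and 16.4, a log2 fold change of 0.16 (SE 0.31). CDK1 (NM_174016) had 35.5, 17.3 and 24.9 against 23.2, 28.0, 40.5 and 21.3, with 0.14 (SE 0.32). For all 3 genes the groups overlapped and the difference was smaller than its SE. With quantile normalization the value of CCNB1 was -0.0048. With 1 embryo left out CCNB1 ran from -0.04 to 0.41 and CDK1 from -0.11 to 0.38, lowest without WT control embryo 2 and highest without WT control embryo 1 for both, so neither has a stable sign. WT control embryo 1 was the highest WT control embryo for each.

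The D cyclins, which partner CDK4 and CDK6, also overlapped. CCND2 (NM_001076372) had 60.0, 68.1 and 51.3 in WT control and 53.5, 38.3, 60.7 and 82.9 in GATA3 KO embryos, a log2 fold change of -0.06 (SE 0.28). CCND3 (NM_001034709) had 10.3, 10.8 and 12.4 against 11.6, 11.2, 9.53 and 7.39, a log2 fold change of -0.17 (SE 0.41). GATA3 KO embryo 6 was the highest embryo for CCND2 and the lowest for CCND3. The sign of CCND2 turned without WT control embryo 2 (0.03) or GATA3 KO embryo 4 (0.12), and its lowest value was -0.24 without GATA3 KO embryo 6.

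Of the E cyclins, which activate CDK2 at the start of replication, CCNE1 (NM_001192776) had 10.3, 8.65 and 7.77 in WT control and 7.24, 17.7, 13.1 and 10.7 in GATA3 KO embryos, a log2 fold change of 0.36 (SE 0.44). CCNE2 (NM_001015665) had 3.95, 3.24 and 10.9 against 13, 13.8, 13.1 and 9.03, and lay under the mean of 10 needed for the fit. Its means were 6.02 ± 4.22 (SD, n = 3) and 12.2 ± 2.16 (SD, n = 4). KO embryos 3, 4 and 5 were above every WT control embryo, and embryo 6 was under WT control embryo 3. CCNE2 overlaps INTS8, a subunit of the Integrator complex, which had 19.4 ± 4.99 (SD, n = 3) and 21.2 ± 1.64 (SD, n = 4).

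Of all 4271 transcripts fitted in this table, 2.01% met the threshold used here (p of 0.05 or less after Benjamini-Hochberg adjustment, with a KO to WT control ratio of 1.5 and above or 0.6 and below), 1.55% on the higher and 0.468% on the lower side. No call is given for the 8 genes fitted, since this contrast chose the set. The threshold was met by 86 transcripts (66 higher, 20 lower) with limma on the deposited scaling and by 105 (48 higher, 57 lower) with limma after quantile normalization. With edgeR and DESeq2, which change the count model as well as the scaling, it was met by 126 (57 higher, 69 lower) and 158 (72 higher, 86 lower), and DESeq2 put the median of all transcripts at 0.0027 in place of 0.11. Groups did not overlap for 11.9% of transcripts with KO higher, as for CCNA2, and for 7.05% with KO lower, as for CCNF, and nothing is read from this for either gene.

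Reads of 2 genes in the same embryo share depth and size factor, so their ratio is free of both. For every 100 reads of CCNB1, CCNF had 30.6, 50.0 and 39.5 in WT control embryos and 5.56, 8.23, 4.92 and 4.63 in GATA3 KO embryos. CCNA2 had 32.4, 23.8 and 44.7 in WT control and 83.3, 80.4, 62.3 and 75.0 in GATA3 KO embryos. For both genes the ratio left a gap between the groups, in opposite directions. CCNB2 had 23.7 to 38.1 in WT control and 18.5 to 44.4 in GATA3 KO, and CDK1 had 38.1 to 42.1 and 24.1 to 55.7, so that the KO range enclosed the WT control range for both. The 9 listed genes together took 0.0910 to 0.112% of reads in WT control and 0.0955 to 0.123% in GATA3 KO embryos.

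The WT control embryos all had Y-linked reads (29 to 98), as did GATA3 KO embryo 6 (68), while GATA3 KO embryos 3, 4 and 5 had 0, 0 and 2. The Y-linked TSPY, a multicopy gene whose reads may be shared between copies, was called lower (log2 fold change -4.11, adjusted p = 0.0232 from limma), though not without WT control embryo 2, WT control embryo 3 or GATA3 KO embryo 3, and DDX3Y, next in level, had 8.15 ± 3.62 (SD, n = 3) and 5.54 ± 11.1 (SD, n = 4). CCNF was 4.11 in embryo 6, within the 2.89 to 5.60 of the KO group, and CCNA2 was highest there. The part of embryo sex in these differences was not tested.

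In CDX2 KO embryos 6 of the 9 genes fitted had a negative log2 fold change, from -1.12 for CDK1, -0.72 for CCND2 and -0.62 for CCNF to -0.29 for CCNB2, and 3 a positive one, but 0 passed the threshold. Of 5719 transcripts fitted with limma, 0% passed, and 187 (3.27%) had an unadjusted p under 0.05, among them 1 of the 9, CDK1. With edgeR or DESeq2 on the recovered reads, 0 of the 9 passed as well, and the median of all transcripts was 0.011 and 0.027 in place of -0.15. The WT control embryos are the same as above, so the comparisons are not independent. They held 1.86 to 1.88 times the reads in this table, and 40.0 to 46.7% of nonzero counts were odd in its 7 embryos, against 49.6 to 53.5% in the other table. Y-linked reads were 0 in CDX2 KO embryos 2, 3 and 4 and 161 in embryo 5, against 47 to 154 in WT control, and their part in the differences of CCNF, CDK1 and the mitotic genes was not tested. Summed TE markers, all 9 listed, spanned 4501 to 11398 in WT control against 2141 to 7376 after CDX2 KO, and ICM markers 209 to 248 against 128 to 297. Primitive endoderm markers summed to 48.1 to 88.5 against 25.7 to 111.8, and cumulus and granulosa markers, 9 of 10 listed, to 52.1 to 87.5 against 73.6 to 104.5. The part of these cells was not tested either.

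CCNF had 39.3, 30.0 and 27.5 in WT control and 24.5, 16.3, 19.1 and 22.6 in CDX2 KO embryos 2 to 5. The highest KO embryo was under the lowest WT control embryo, with no wide gap. The means were 32.3 ± 6.23 (SD, n = 3) and 20.6 ± 3.64 (SD, n = 4), and the log2 fold change was -0.62 (SE 0.38, 95% interval -1.44 to 0.20, adjusted p = 0.900 from limma). A two-sided exact permutation test gave p = 0.0286, the least that 35 splits of 7 embryos can give, in 10 such tests, 1 for each gene. CCNF was chosen for high values in these same WT control embryos, so this p is not independent support. It was the only 1 of the 9 genes without overlap, where 5.88% of all transcripts fitted had none, with 3.36% all lower and 2.52% all higher in KO. With 1 embryo left out the log2 fold change ran from -0.73 (without WT control embryo 3) to -0.48 (without WT control embryo 1), and it was -0.52 without CDX2 KO embryo 3, which had 7 CCNF reads.

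CDK1 had 55.8, 25.3 and 33.2 in WT control and 8.58, 14, 25.7 and 20.9 in CDX2 KO embryos. CDX2 KO embryo 4 lay just above WT control embryo 2, and the other KO embryos lay under all WT control embryos. The log2 fold change was -1.12 (SE 0.47, 95% interval -2.13 to -0.12, unadjusted p = 0.0311, adjusted p = 0.900 from limma), and a two-sided exact permutation test gave p = 0.0857. It ran from -1.37 to -0.82 with 1 embryo left out.

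**Figure D2:**
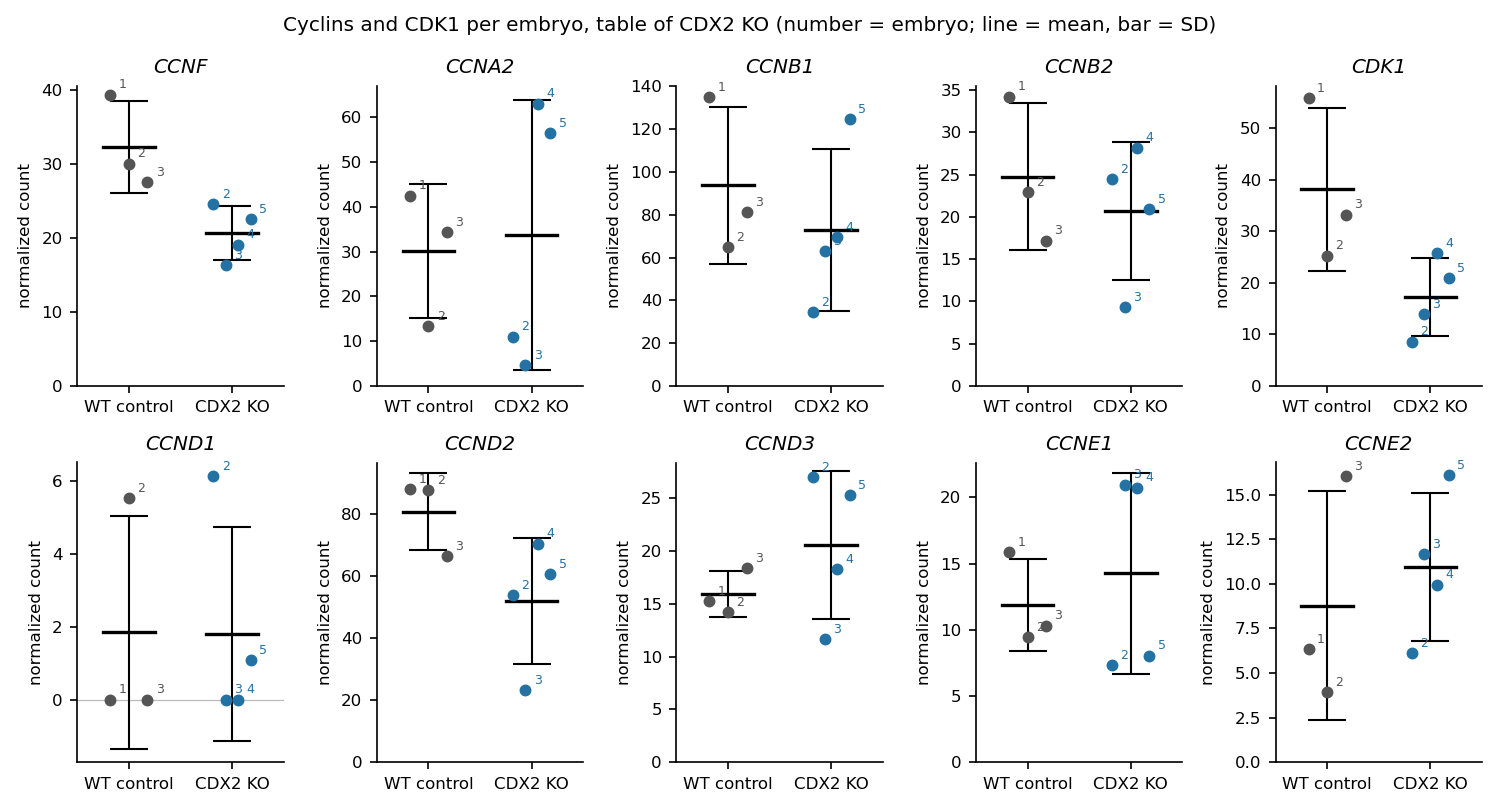
Normalized count (vertical axes, linear; the axis of CCND1 extends under 0 only for its SD bar) of the 10 genes in each WT control (grey) and CDX2 KO (blue) embryo of the other table, with embryo numbers, means (lines) and SD (bars). CCNF runs from 16.3 to 24.5 in CDX2 KO against 27.5 to 39.3 in WT control, and CCNA2 spreads from 4.66 to 63.0 within the CDX2 KO group.

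CCNA2 split the CDX2 KO embryos. It had 42.5, 13.4 and 34.4 in WT control and 11.0, 4.66, 63.0 and 56.4 in CDX2 KO embryos 2 to 5. Embryos 2 and 3 lay under every WT control embryo, embryos 4 and 5 above. The log2 fold change was -0.33 (SE 0.77, 95% interval -1.99 to 1.33, adjusted p = 0.946 from limma), and its sign turned, to 0.33, without embryo 3, which had 2 CCNA2 reads. With all embryos kept it was positive with edgeR (0.30) and DESeq2 (0.26). Embryos 2 and 3 also had the fewest reads of the table, 218797 and 100731, and the part of depth was not tested.

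CCNB1 had 135.1, 64.8 and 81.4 in WT control and 34.3, 62.9, 69.7 and 124.6 in CDX2 KO embryos (log2 fold change -0.43, SE 0.48, adjusted p = 0.906 from limma). CCNB2 had 34.3, 22.9 and 17.2 against 24.5, 9.32, 28.2 and 20.9 (-0.29, SE 0.46, adjusted p = 0.933 from limma). For both, WT control embryo 1 was highest and the groups overlapped. With 1 embryo left out CCNB1 ran from -0.74 (without CDX2 KO embryo 5) to -0.13 (without CDX2 KO embryo 2, and -0.14 without WT control embryo 1), and CCNB2 was 0.031 without CDX2 KO embryo 3.

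Among the D cyclins, CCND2 had 88.2, 87.7 and 66.5 in WT control and 53.9, 23.3, 70.5 and 60.7 in CDX2 KO embryos. Only KO embryo 4 exceeded a WT control embryo, and the log2 fold change was -0.72 (SE 0.44, 95% interval -1.68 to 0.24, adjusted p = 0.900 from limma). Without KO embryo 3 it was nearest to 0, at -0.38. CCND3 had 15.2, 14.2 and 18.3 against 27.0, 11.7, 18.2 and 25.2 (0.29, SE 0.42, adjusted p = 0.928 from limma). It ran from 0.14 without CDX2 KO embryo 2 to 0.52 without CDX2 KO embryo 3. CCND1 (NM_001046273) was barely detected, with 0, 7 and 0 reads in WT control and 5, 0, 0 and 2 reads in CDX2 KO embryos. By counting error alone, the 0 reads of WT control embryos 1 and 3, then CDX2 KO embryos 3 and 4, allow up to 1.90, 3.44, 6.99 and 2.49 normalized counts. A difference in CCND1 was thus not detectable at this depth.

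CCNE1 had 15.9, 9.48 and 10.3 in WT control and 7.35, 21.0, 20.7 and 8.05 in CDX2 KO embryos (0.13, SE 0.54, adjusted p = 0.969 from limma). CCNE2 had 6.34, 3.95 and 16.0 against 6.13, 11.7, 9.95 and 16.1 (0.42, SE 0.67, adjusted p = 0.933 from limma). KO embryos 3 and 4 were the high ones for CCNE1, and the groups overlapped for both genes. The 95% intervals of these differences, -1.04 to 1.30 and -1.04 to 1.88, leave room for a change in either direction. CCNE2 was 0.03 without WT control embryo 2, and the sign of CCNE1 turned without that embryo (-0.0029) or without CDX2 KO embryo 3 or 4 (-0.094 and -0.089).

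**Figure D3:**
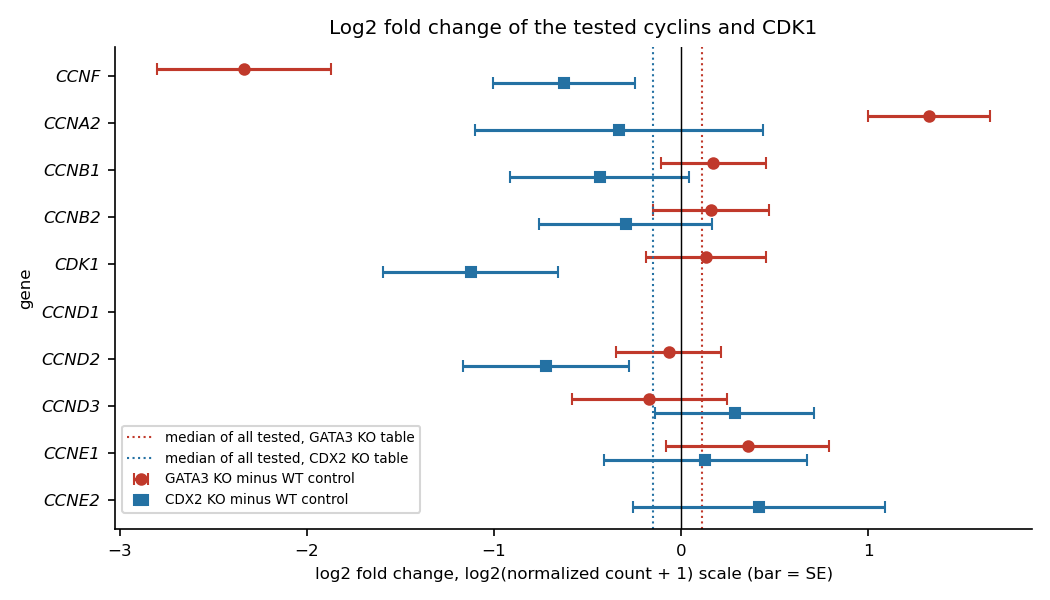
Log2 fold change (horizontal axis, on the log2(normalized count + 1) scale) of each fitted gene in GATA3 KO (red circles) and CDX2 KO (blue squares) against the shared WT control embryos; bars are SE and dotted lines the medians of all fitted transcripts, 0.11 and -0.15. CCNF lies at -2.34 in GATA3 KO and -0.62 in CDX2 KO, CCNA2 at 1.33 and -0.33, and CDK1 at 0.14 and -1.12.

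In each CDX2 KO embryo 2 to 5, CCNF had 71.4, 25.9, 27.4 and 18.1 reads for every 100 of CCNB1, against 29.1, 46.3 and 33.8 in WT control. CDX2 KO embryo 2 was thus above, and the other 3 under, all WT control embryos. In embryo 2 both CCNB1 (34.3 normalized counts) and CCNF (24.5) were under every WT control embryo. CCNB1 itself ran from 34.3 to 124.6 in this group, so the ratio does not show whether the lower CCNF level holds. CDK1 had 25, 22.2, 36.9 and 16.8 against 41.3, 39.0 and 40.8, and all 4 KO embryos were under the WT control range. The ratios of CDX2 KO embryos 2 and 3 rest on 7 and 6 CDK1 reads over 28 and 27 CCNB1 reads. The CDK1 counts themselves overlapped between the groups, and the share of other genes with such a gap was not computed. CCNB2 ran from 14.8 to 71.4 in CDX2 KO and from 21.1 to 35.4 in WT control.

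**Figure D4:**
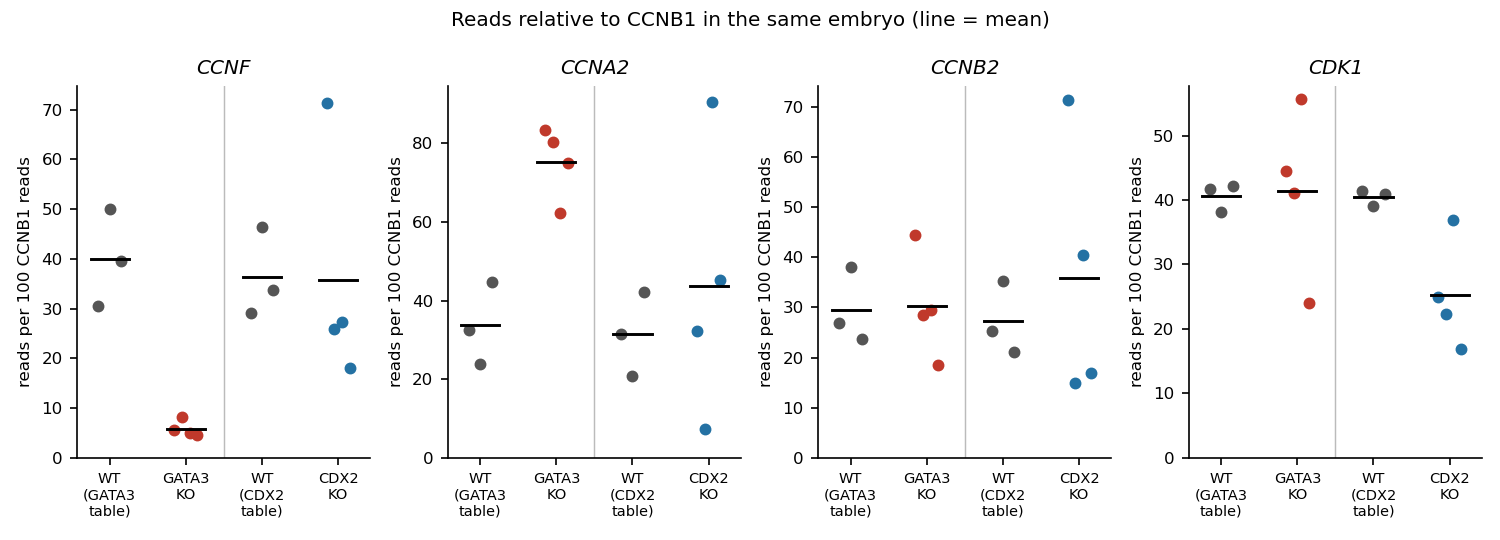
Reads of CCNF, CCNA2, CCNB2 and CDK1 for every 100 CCNB1 reads of the same embryo (vertical axes, linear from 0), by group within each table; points are embryos and lines are means. In GATA3 KO embryos the CCNF ratio is 4.63 to 8.23 against 30.6 to 50.0 in WT control, and in CDX2 KO embryos it spreads from 18.1 to 71.4.

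Levels are not compared between the 10 genes, because transcript lengths were not used here. In the WT control embryos CCNF reads were 62, 38 and 24 in the table of CDX2 KO and 33, 21 and 15 in that of GATA3 KO, ratios of 1.88, 1.81 and 1.6.

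The machinery around these genes was described with 10 lists of cell cycle genes. In GATA3 KO embryos, 0 of 70 fitted transcripts of these lists passed the threshold, 43 had a positive and 27 a negative log2 fold change, and their median was 0.19 where that of all transcripts was 0.11. Groups did not overlap for 14.3% of them, against 18.9% of all transcripts. Without WT control embryo 1, 4 of 69 passed, BUB3, CKS1B, RPA2 and TYMS, all higher, where 304 of all 4259 transcripts passed, 259 of them higher. The median was 0.31 without WT control embryo 1 and 0.09 without WT control embryo 2 (0.15 and 0.065 for all), the highest and lowest with 1 embryo left out. With edgeR and DESeq2, 0 passed. In CDX2 KO embryos 0 of 79 passed, 18 were positive and 61 negative, and the median was -0.38 where that of all transcripts was -0.15. Groups did not overlap for 8.86% of them, against 5.88% of all transcripts. The median was -0.29 without CDX2 KO embryo 3 (-0.05 for all), -0.25 without WT control embryo 1 (-0.10) and -0.23 without CDX2 KO embryo 2 (-0.13), and at its lowest -0.44 without CDX2 KO embryo 4 (-0.19). Medians of single lists, with few transcripts each, moved more, and are given with the lowest and highest found when 1 embryo was left out. Of the list genes named from here on, leaving out 1 embryo turned the sign of CCNK, CKS2, NUSAP1, UBE2C and E2F4 in GATA3 KO and of CCNK, CKS1B, RBX1, SKP1 and LIG1 in CDX2 KO.

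The SCF ubiquitin ligase is the complex that cyclin F joins. In GATA3 KO embryos 8 of its 12 listed genes were fitted, with a median log2 fold change of 0.36 (0.14 without WT control embryo 2 to 0.53 without WT control embryo 3). In CDX2 KO embryos 9 were fitted, with -0.29 (-0.44 without CDX2 KO embryo 5 to 0.04 without CDX2 KO embryo 3). SKP1, the adaptor that binds the F-box, averaged 142.6 ± 64.3 (SD, n = 3) for WT control against 289.0 ± 86.2 (SD, n = 4) for GATA3 KO, with a log2 difference of 1.07 (adjusted p = 0.0663 from limma). RBX1, the RING subunit, had 0.33 (adjusted p = 0.504 from limma). In CDX2 KO embryos SKP1 had -1.03 and RBX1 -0.18 (adjusted p = 0.900 and 0.946 from limma), but SKP1 was at 9.32 in embryo 3 and its difference was 0.04 without that embryo.

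Of 11 known or proposed cyclin F substrates, 3 were fitted in GATA3 KO and 5 in CDX2 KO embryos, with medians of -0.08 (-0.21 without GATA3 KO embryo 5 to 0.08 without GATA3 KO embryo 4) and -0.43 (-0.60 without CDX2 KO embryo 5 to 0.13 without WT control embryo 1). MYBL2, a transcription factor of mitotic genes, averaged 72.6 ± 14.3 (SD, n = 3) for WT control against 41.4 ± 11.6 (SD, n = 4) for GATA3 KO, without overlap (log2 fold change -0.82, adjusted p = 0.106 from limma). NUSAP1, a spindle protein, had -0.08 (adjusted p = 0.892 from limma). In CDX2 KO embryos MYBL2 had -0.43 and SLBP, the histone mRNA binding protein, 0.62 (adjusted p = 0.900 for each from limma).

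The list of CDKs and their small partners, 5 fitted in each table, had medians of 0.04 in GATA3 KO (-0.10 without GATA3 KO embryo 5 to 0.28 without WT control embryo 1) and -0.42 in CDX2 KO (-0.65 without CDX2 KO embryo 5 to -0.20 without WT control embryo 1). Of these, CKS2 and CKS1B had log2 fold changes of 0.04 and 0.91 in GATA3 KO embryos (adjusted p = 0.937 and 0.193 from limma). In CDX2 KO embryos CKS2, a CDK1-binding subunit, averaged 218.4 ± 33.8 (SD, n = 3) for WT control against 130.1 ± 41.3 (SD, n = 4) for CDX2 KO, without overlap (-0.79, adjusted p = 0.900 from limma). CKS1B had -0.05. The CDK inhibitors were low, with 0 of 7 fitted in GATA3 KO and 1 in CDX2 KO embryos, CDKN1A at 0.76 (adjusted p = 0.900 from limma). CDKN1B and CDKN1A had 5.14 ± 3.73 and 8.28 ± 4.03 (SD, n = 3) in WT control and 7.40 ± 3.91 and 7.85 ± 4.20 (SD, n = 4) in GATA3 KO embryos. CDKN2D, under the mean of 10, had 1.90, 1.58 and 2.29 in WT control and 3.68, 30.3, 17.4 and 7.52 in CDX2 KO embryos. The WT control values and KO embryo 2 were at or under the 3-read floor, and the highest value came from KO embryo 3, the shallowest library.

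The other cyclins, 9 fitted in each table, had medians of 0.49 in GATA3 KO (0.27 without GATA3 KO embryo 6 to 0.56 without GATA3 KO embryo 5) and -0.28 in CDX2 KO (-0.35 without CDX2 KO embryo 5 to -0.14 without CDX2 KO embryo 3). Of these, CCNG1, a target of p53, had 0.49 and -0.52, and CCNK, the partner of CDK12, had 0.20 and -0.12, none past the threshold. For the phosphatases that oppose CDK1, PPP2R1A and PPP2CA, the log2 fold changes were -0.51 and 0.19 in GATA3 KO and -0.56 and -0.65 in CDX2 KO. This list had medians of 0.17 (5 fitted, -0.01 without GATA3 KO embryo 6 to 0.31 without WT control embryo 1) and -0.56 (7 fitted, -0.74 without WT control embryo 2 to -0.24 without WT control embryo 1).

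Late mitosis was described by the anaphase-promoting complex, which marks cyclin B for destruction. Its list had medians of 0.15 in GATA3 KO (12 fitted, -0.05 without WT control embryo 2 to 0.31 without WT control embryo 1) and -0.42 in CDX2 KO (13 fitted, -0.58 without CDX2 KO embryo 4 to -0.17 without CDX2 KO embryo 2). UBE2C, its ubiquitin-conjugating enzyme, had 0.09 in GATA3 KO and -0.88 in CDX2 KO. BUB3, a checkpoint protein, had 0.72 in GATA3 KO, and CDC20, the activator, had -0.83 in CDX2 KO. The adjusted p-values from limma for these 4 differences ran from 0.16 to 0.900.

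All 14 fitted mitotic kinases and regulators had a negative log2 fold change in CDX2 KO embryos, with a median of -0.43 (-0.60 without CDX2 KO embryo 4 to -0.33 without WT control embryo 1). The median of all transcripts was -0.15 with this scaling, against 0.011 with edgeR and 0.027 with DESeq2. The count of signs may depend on that scaling, and the share of all transcripts with a negative sign is not given here. In GATA3 KO embryos 8 of 14 were positive, with a median of 0.07 (-0.09 without GATA3 KO embryo 3 to 0.24 without WT control embryo 1). TPX2, a spindle assembly factor, averaged 127.7 ± 13.5 (SD, n = 3) for WT control against 73.4 ± 13.3 (SD, n = 4) for CDX2 KO (-0.80). CENPF, a kinetochore protein, had 131.2 ± 16.4 (SD, n = 3) and 76.7 ± 12.4 (SD, n = 4) (-0.77). Neither passed (adjusted p = 0.900 for each from limma), and 12 of 14 genes of the list were negative without WT control embryo 1 and 13 of 14 without WT control embryo 2 or CDX2 KO embryo 3. In GATA3 KO embryos TPX2 and CENPF had -0.35 and -0.32 (adjusted p = 0.429 and 0.499 from limma).

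The S phase list had medians of 0.66 in GATA3 KO (11 fitted, 0.39 without WT control embryo 2 to 0.72 without WT control embryo 1) and -0.28 in CDX2 KO (13 fitted, -0.41 without WT control embryo 3 to -0.03 without CDX2 KO embryo 2). PCNA, the replication clamp, averaged 45.1 ± 9.74 (SD, n = 3) for WT control against 70.8 ± 6.93 (SD, n = 4) for GATA3 KO, without overlap (0.66, adjusted p = 0.146 from limma), and -0.78 in CDX2 KO (adjusted p = 0.900 from limma). LIG1, a DNA ligase, had -0.24 and -0.03. The RB, E2F and DREAM list, the repressors and activators of cyclin transcription, had 3 of 16 genes fitted in each table, with medians of 0.55 (0.24 without WT control embryo 2 to 0.77 without WT control embryo 3) and -0.38 (-0.47 without WT control embryo 2 to -0.08 without CDX2 KO embryo 3). RBBP4 had 0.55 and -0.50, and E2F4 had -0.18 and -0.38, none past the threshold.

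**Figure D5:**
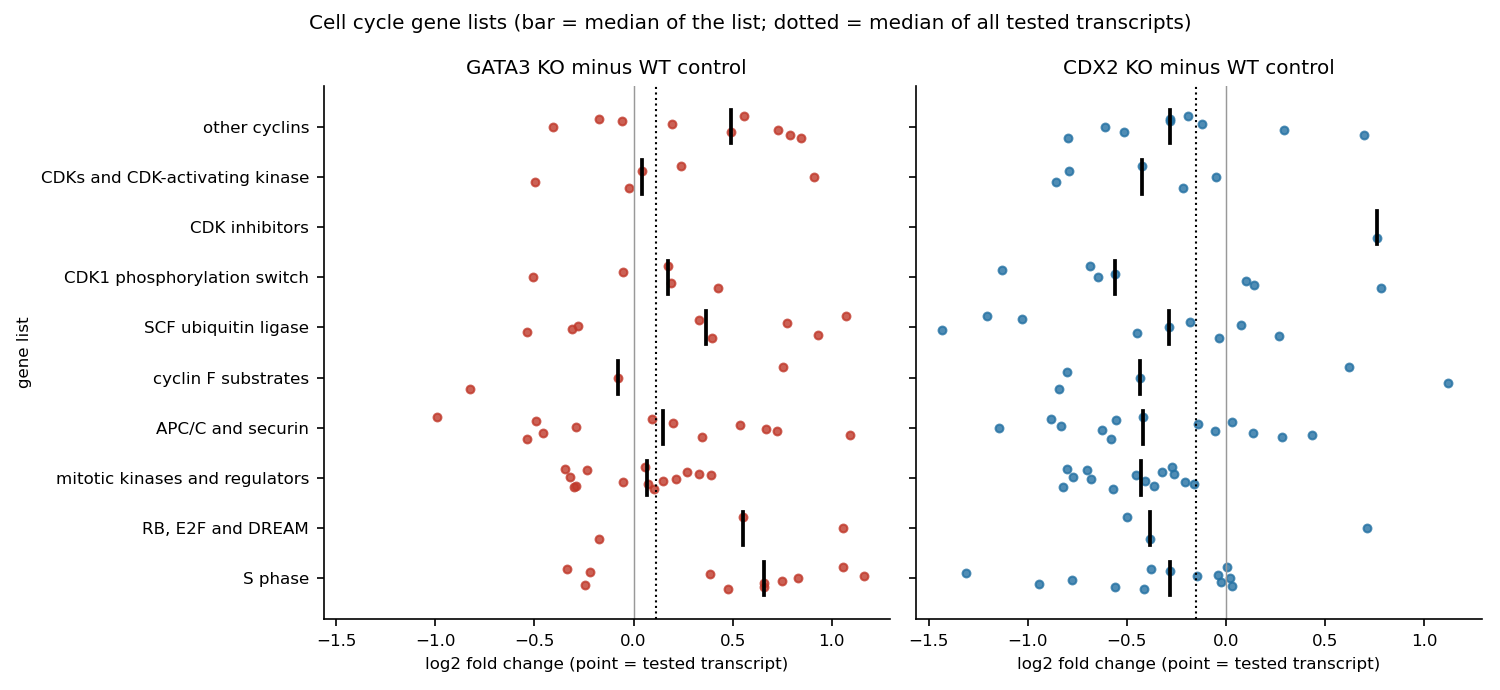
Log2 fold change (horizontal axes) of each fitted transcript (points) of 10 cell cycle lists (vertical axis) in GATA3 KO (left) and CDX2 KO (right) against WT control; bars are list medians and dotted lines the medians of all fitted transcripts. No point passed the threshold, and the mitotic list lies wholly under 0 in CDX2 KO, with a median of -0.43 where that of all transcripts was -0.15.

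The transcripts whose pattern over the 7 embryos was most like that of CCNF were named by the smallest root mean square difference of centred log2 values. In the table of GATA3 KO these were GATA3 (0.29), CSNK1G2 (0.37), SUN2 (0.37), SREBF2 (0.47) and TYRO3 (0.48), where the median of all transcripts was 1.28. Being most like CCNF, they are low in GATA3 KO by choice, such as SUN2, a nuclear envelope protein, with 25.7 ± 1.15 (SD, n = 3) and 6.74 ± 2.22 (SD, n = 4). In the table of CDX2 KO they were MAN2A2 (0.11), PAK1IP1 (0.11), CPNE1 (0.15), ECSIT (0.15) and WDR43 (0.16), against a median of 0.67. The lists share no gene.

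Of the 5 genes on either side of CCNF, by the order in ARS-UCD2.0, those fitted did not pass the threshold. No annotated gene overlaps CCNF there. TEDC2, next to it on one side, had a log2 fold change of -0.19 in GATA3 KO and 0.24 in CDX2 KO embryos (adjusted p = 0.832 and 0.938 from limma). On the other side ABCA3 had -1.02 and 0.15 (adjusted p = 0.0851 and 0.952 from limma), and RNPS1 had -0.11 and -0.95 (adjusted p = 0.844 and 0.900 from limma).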

How the data were processed

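RNA was measured in single day 7 blastocysts (3 WT control, 4 GATA3 KO, 4 CDX2 KO). Per the study's methods and processing notes, the authors trimmed reads (Trimmomatic 0.39), mapped them to ARS-UCD1.2 (HISAT2 2.1.0), counted them with featureCounts 1.6.3 and normalized with DESeq2. The deposited signal in each of 2 tables is a read count divided by a size factor for each embryo; the tables share the WT control embryos. In every column 100% of values were whole multiples of 1 step, within 0.01. Columns with the authors' fold changes and p-values were not used. WT control columns match samples by number, and KO columns only their group, so embryo numbers are column numbers. Symbols came from the RefSeq table of ARS-UCD2.0 (98.6% of transcripts).

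The test was limma 3.58.1 (R 4.3.3, trended) on log2(normalized count + 1), which understates changes at low counts, for transcripts averaging 10 or more (4271 and 5719), with Benjamini-Hochberg adjustment and the fold change limits of the methods. Genes, lists and members were chosen with earlier results of these data known. Named were the 10 genes, list genes past the threshold (0 in the cell cycle lists), the 2 of highest mean in each list and table, the 5 patterns most like CCNF, and the targeted genes; RPA2, TYMS, CAND1, NANOG, SOX2, PAG2, ELF5, IFNT2, SOX17, the overlapping genes and the neighbours were added after their values were seen, as was SLBP in GATA3 KO. Alternatives were a pseudocount of 5, no filter, quantile normalization, edgeR 4.0.16 and DESeq2 1.42.0 on recovered reads, and leaving out each embryo. On simulated counts with 200 transcripts changed 4-fold, limma recovered 88.5% in the design of GATA3 KO and 41% in that of CDX2 KO. All simulated transcripts of a design shared 1 dispersion (0.065 and 0.184). Dispersion that differs between genes was not simulated, so these shares may not hold for a low gene such as CCNF.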

Additional observations from a re-analysis of the deposited data

Results flagged for a closer look

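CCNE2 stood at 9.03 in GATA3 KO embryo 6, where the other 3 KO embryos lay at 13 to 13.8. The gap was 0.84 of the range of the 4 embryos, above the critical value of Dixon's test. Such a gap arises by chance in about 1 of 20 groups, and 19 groups of 4 KO embryos were examined. Embryo 6 had 11 CCNE2 reads.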

How the results depend on the processing

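In GATA3 KO, 86 transcripts passed the threshold, against 145 with a pseudocount of 5, 172 with no filter and 158 with DESeq2, and 1 to 304 with 1 embryo left out (1 without WT control embryo 2 or GATA3 KO embryo 3, 20 without WT control embryo 3, 25, 45 and 187 without GATA3 KO embryos 4, 5 and 6, 304 without WT control embryo 1). The cell cycle lists had 0 and, with 1 embryo left out, 0 to 4. In CDX2 KO, 0 transcripts passed, against 1 with a pseudocount of 5, 2 with no filter, 2 with quantile normalization, 1 with edgeR and 10 with DESeq2, and 0 to 1 with 1 embryo left out. The members and cell cycle lists had 0 in all of these for CDX2 KO. The log2 fold change of CCNF in GATA3 KO was -1.69 with a pseudocount of 5 and between -2.58 and -2.22 otherwise. In CDX2 KO the sign of CCNA2 turned with edgeR (0.30) and DESeq2 (0.26), and with 1 embryo left out it ran from -0.84 to 0.33. CCNB2 ran from -0.52 to 0.031 and CCNE1 from -0.094 to 0.37 with 1 embryo left out. The cause was not tested. Reads a gene were few (75 for all 10 genes in CDX2 KO embryo 3), and their part in these changes was not tested. No paired analysis was possible because the KO columns carry numbers that are not the replicate numbers of the labels.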

Other observations

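SLBP, the histone mRNA binding protein that cyclin F brings to destruction, was chosen here after its values were seen. It averaged 21.0 ± 2.54 (SD, n = 3) for WT control against 37.2 ± 11.0 (SD, n = 4) for GATA3 KO, with every KO embryo above every WT control embryo. The log2 fold change was 0.76 (adjusted p = 0.156 from limma). In the table of CDX2 KO it had 28.8 ± 5.97 (SD, n = 3) and 44.6 ± 7.07 (SD, n = 4), again without overlap. Both comparisons share the WT control embryos. All KO embryos were higher for 11.9% of all transcripts fitted in the table of GATA3 KO and 2.52% in that of CDX2 KO, so nothing is read from this. Of the fitted substrates, 1 was positive and 2 were negative in GATA3 KO (MYBL2 -0.82, NUSAP1 -0.08), and 2 were positive and 3 negative in CDX2 KO. Cyclin F acts on the protein, whereas these values are RNA.

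CAND1, which exchanges the F-box proteins of SCF complexes, and RPA2, a subunit of the single-strand DNA binding complex, were also chosen after their values were seen. CAND1 averaged 20.5 ± 5.62 (SD, n = 3) for WT control against 39.1 ± 4.72 (SD, n = 4) for GATA3 KO, with a log2 difference of 0.93 (adjusted p = 0.0768 from limma). RPA2 had 20.5 ± 10 (SD, n = 3) and 43.2 ± 6.47 (SD, n = 4), with 1.16 (adjusted p = 0.0634 from limma). All 4 KO embryos were above every WT control embryo for each, as for 11.9% of all transcripts fitted, so nothing is read from this. Neither passed the threshold with all embryos kept, and RPA2 passed only without WT control embryo 1.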
